A study of Mus musculus with 8 samples.

Results

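The genes described here encode ligands that antigen-presenting and tumor cells show to T cells. Cd274 (PD-L1), Pdcd1lg2 (PD-L2), Cd80, Cd86 and Icosl act through the PD-1, CD28, CTLA-4 and ICOS receptors. The last member is Cd276 (B7-H3), whose receptor is not settled. The members were taken by symbol: these 6 genes of 19024 symbols were each found in all 8 expression matrices. Single cells of MB49 tumors were profiled. MB49 is a mouse urothelial cancer line, and it was grown under the skin of C57BL/6 mice. The deleted hosts (4 libraries, numbered 3, 4, 7 and 8) were UbcreERT2/+;Atg7f/f, and the wild-type hosts (4 libraries, numbered 1, 2, 5 and 6) were UbcreERT2/+;Atg7+/+. All mice of both groups thus carried the ubiquitin-driven, tamoxifen-activated Cre, and the labels give the same daily tamoxifen for 4 days to both. Atg7 encodes an enzyme needed to form autophagosomes, and its deletion is a host deletion: the injected tumor cells were not derived from these mice. MB49 cells were injected 1 week after tamoxifen at 2 tumors per mouse, and tumors were taken after 3 weeks. The labels give no ages and do not tie tumors to mice, so some libraries may share an animal, and p-values then measure only the spread between these libraries.

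Cd274 and Pdcd1lg2 bind PD-1 on T cells and restrain them. Cd80 and Cd86 bind CD28, which activates T cells, and CTLA-4, which competes for the same ligands. Icosl binds ICOS and supports helper T cells, while the receptor of Cd276 is not settled. Cd274 is known to be induced by interferon gamma in many cell types, tumor cells included, and Cd80 and Cd86 rise as dendritic cells mature.

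In mm10, Cd274 (ENSMUSG00000016496) lies on the plus strand of chromosome 19 at 29367455 to 29388095. Pdcd1lg2 (ENSMUSG00000016498) follows on the same strand at 29410919 to 29471161, 22823 bases further on. Cd80 and Cd86 share chromosome 16, with Cd80 on the plus strand at 38455561 to 38496335 and Cd86 on the minus strand at 36603869 to 36666081. Icosl lies on chromosome 10 (78069302 to 78083913) and Cd276 on chromosome 9 (58524298 to 58555437). RefSeq's promoter table (GRCm38.p6) held 5 of the 6 members. The promoters of the neighbouring pair are shown because these 2 ligands of 1 receptor are close in the genome and yet differed in the cells that held their RNA: malignant-like cells had Cd274 and almost no Pdcd1lg2. Each sequence is the 250 bases before the RefSeq start, plus strand, with matches to the searched motifs in capitals.
Cd274 promoter, chr19:29367188-29367437: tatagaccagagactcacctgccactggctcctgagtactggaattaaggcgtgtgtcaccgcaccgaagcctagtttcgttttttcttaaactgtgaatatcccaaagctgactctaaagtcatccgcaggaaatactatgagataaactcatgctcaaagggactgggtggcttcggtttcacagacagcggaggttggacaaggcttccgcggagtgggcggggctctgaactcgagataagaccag
Pdcd1lg2 promoter, chr19:29410669-29410918: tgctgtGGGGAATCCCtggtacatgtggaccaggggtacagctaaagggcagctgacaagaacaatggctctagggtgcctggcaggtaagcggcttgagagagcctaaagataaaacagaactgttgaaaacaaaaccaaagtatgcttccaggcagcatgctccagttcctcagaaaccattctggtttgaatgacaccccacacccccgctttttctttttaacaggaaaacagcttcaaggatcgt
The motifs searched on both strands were the GAS element TTCNNNGAA, the interferon regulatory factor (IRF) element and the NF-kB element. The capitals in the Pdcd1lg2 window mark a match to the degenerate NF-kB motif, which these letters meet on both strands. Cd274 had no match to these letters in its window. Over 32851 promoters of the same length, 7.02% held the GAS letters, 2.98% the IRF letters and 7.25% an NF-kB match.

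After filtering, 28488 cells remained. Summed over all deposited cells, before filtering, UMIs were fewest for library 7 (deleted, 4371773) and most for library 6 (wild type, 59235799). Per cell, the median before filtering was smallest for library 8 (deleted, 1733 UMIs) and largest for library 6 (9213 UMIs). A UMI counts 1 captured RNA molecule. A level is a gene's UMIs per 10000 UMIs of a cell, as a mean of that class's cells within 1 library. Classes are named X-like from marker genes. Malignant-like cells had UMIs of 5 or 6 of 8 epithelial markers, with Epcam and Krt20 at 0 in every library. They made up 1.08% to 11.5% of cells in deleted hosts and 44.7% to 71.6% in wild-type hosts. Deleted libraries 3, 4, 7 and 8 held 41, 136, 108 and 105 of them. Atg7 itself was scarce. It averaged 0.0936 ± 0.0487 in monocyte/macrophage-like cells of deleted hosts and 0.268 ± 0.109 in those of wild-type hosts (SD, n = 4 each, two-sided exact permutation p = 0.0286). In neutrophil-like cells it averaged 0.550 ± 0.204 in deleted and 0.425 ± 0.181 in wild-type hosts (SD, n = 4 each, exact permutation p = 0.429). The monocyte/macrophage-like class came from different clusters in different libraries: clusters 13 and 16 held 44.7% and 49.6% of the class in deleted library 3, cluster 7 held 80.8% in deleted library 4, and cluster 6 held 96.4% and 94.3% in wild-type libraries 5 and 6. Cluster 2 (3054 cells, led by Ccl12, Fabp5 and Pf4) had low depth and stayed unnamed. Barcodes shared between 2 libraries came to at most 0.218% of the smaller library among libraries 1 to 4 and 0.726% to 1.24% among libraries 5 to 8. These sets of 4 carry different barcode lists, and each holds both genotypes.

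The class that held most of a member's RNA depended on the library as well as on the gene. Averaged over the 8 libraries, monocyte/macrophage-like cells led for Cd274, Pdcd1lg2, Cd80 and Cd86, and malignant-like cells led for Icosl and Cd276. Within single libraries Cd274 was led by malignant-like cells in 4 libraries (1, 5, 6 and 7), by monocyte/macrophage-like cells in 3 (2, 3 and 4) and by neutrophil-like cells in library 8. Monocyte/macrophage-like cells led in 4 libraries for Pdcd1lg2, 5 for Cd80 and 6 for Cd86. T-like cells led for Pdcd1lg2 in libraries 5 and 6, dendritic-like cells in library 7 and neutrophil-like cells in library 8. Cd80 was led by malignant-like cells in libraries 5 and 6 and by dendritic-like cells in library 7. Dendritic-like cells led for Cd86 in libraries 5 and 7. Malignant-like cells led for Icosl and Cd276 in the 4 wild-type libraries and in 0 of the 4 deleted libraries, where fibroblast-like cells led for Cd276. For Icosl, fibroblast-like, monocyte/macrophage-like and neutrophil-like cells led in deleted libraries 3, 4 and 8. In deleted library 7, T-like and dendritic-like cells tied for Icosl at 23.1% of 13 UMIs. For Cd274, monocyte/macrophage-like cells held 64.6%, 71.1%, 12.4% and 10.5% of its UMIs in deleted libraries 3, 4, 7 and 8, against 37.3%, 50.9%, 9.92% and 15.1% in wild-type libraries 1, 2, 5 and 6. The groups overlapped, and libraries 1 to 4 were high in both genotypes. Malignant-like cells held 1.27%, 1.52%, 32.6% and 1.62% of Cd274 UMIs in the deleted libraries, against 44.6%, 23.0%, 59.7% and 39.3% in the wild-type libraries. Neutrophil-like cells held 64.4% in deleted library 8 and 9.05% to 21.9% in the other 7 libraries.

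For Cd276 the groups did not overlap. Malignant-like cells held 1.44%, 18.1%, 39.5% and 13.3% of its UMIs in deleted libraries 3, 4, 7 and 8, against 91.2%, 88.5%, 97.05% and 97.4% in wild-type libraries 1, 2, 5 and 6. Fibroblast-like cells held 40.8% to 89.9% in deleted hosts and 0.720% to 3.03% in wild-type hosts. The malignant-like share averaged 18.1% ± 15.9 in deleted and 93.6% ± 4.40 in wild-type hosts (SD over 4 libraries each), a difference of -75.5 percentage points. The two-sided exact permutation test gave p = 0.0286, or 0.0857 after adjustment over 6 members. This is the smallest p that 4 against 4 libraries can give. For Icosl the malignant-like share was 2.59% ± 3.46 in deleted and 56.8% ± 18.2 in wild-type hosts (SD over 4 libraries each, p = 0.0286 in the exact permutation test and 0.0857 adjusted), on 13 to 153 UMIs per library. Within the barcode sets both gave the smallest possible exact permutation p = 0.0556. The malignant-like share of cells did not overlap between the groups either, at 1.08% to 11.5% in deleted and 44.7% to 71.6% in wild-type hosts. A class's share of a gene's UMIs depends on its number of cells. These p-values thus do not test the level per cell, which is given below. The cells had passed a density centrifugation whose part in these shares was not tested. For Cd274, Pdcd1lg2, Cd80 and Cd86 the monocyte/macrophage-like share differed by 11.3, 4.80, 1.08 and -1.32 percentage points, deleted minus wild type, with exact permutation p = 0.600, 0.657, 0.914 and 0.971.

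**Figure D1:**
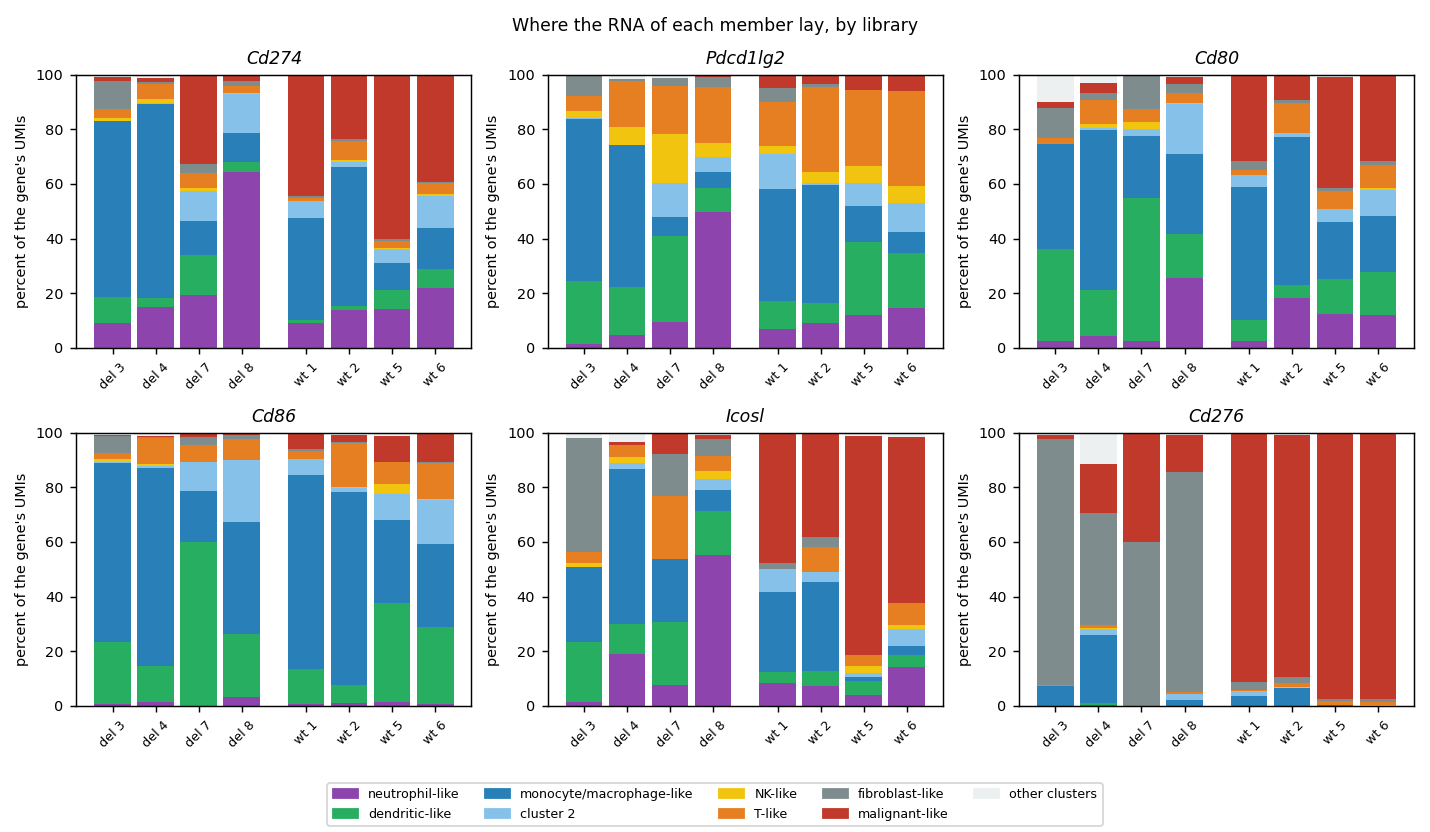
Percent of each member's UMIs (vertical axis) in each cell class, 1 stacked bar per library, with the 4 deleted libraries left and the 4 wild-type libraries right. For Cd276 the malignant-like part is 1.44% to 39.5% in deleted and 88.5% to 97.4% in wild-type libraries.

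Per cell, the order of the 8 classes tested was different from the order of shares. Cd274 was highest in neutrophil-like cells, at 25.3 ± 9.46 UMIs per 10000 (SD over 8 libraries), and the lowest neutrophil-like library (16.4) lay above the highest value of any other class tested (8.54). Monocyte/macrophage-like (5.53 ± 1.87), dendritic-like (4.76 ± 1.70, 7 libraries) and cluster 2 cells (4.17 ± 1.64) followed and overlapped each other. NK-like (1.12 ± 0.390), T-like (1.06 ± 0.227) and malignant-like cells (0.901 ± 0.505) overlapped too, and fibroblast-like cells were lowest at 0.540 ± 0.190. Neutrophil-like cells with a Cd274 UMI, after every cell was thinned to 1000 UMIs, made up 79.5% ± 4.49 in deleted (n = 3 libraries) and 73.4% ± 10.3 in wild-type hosts (SD, n = 4, exact permutation p = 0.429). In fibroblast-like cells the thinned share was 3.83% ± 1.85 in deleted and 0.5% ± 1.00 in wild-type hosts (SD, n = 4 each). Unthinned, 76.8% to 92.3% of neutrophil-like cells in deleted and 61.6% to 83.1% in wild-type libraries had a Cd274 UMI, at median depths of 669 to 1888 UMIs per cell.

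Pdcd1lg2 was highest in dendritic-like (1.10 ± 0.409, 7 libraries) and neutrophil-like cells (1.08 ± 0.725, 8 libraries), which overlapped, and then in NK-like (0.716 ± 0.271) and T-like cells (0.443 ± 0.198). As a mean of all malignant-like cells of a library, Pdcd1lg2 reached at most 0.0219. Cd86 was highest in dendritic-like cells (2.07 ± 0.623), followed by monocyte/macrophage-like cells (1.01 ± 0.489), with overlap between them. Among the classes tested, Cd80 was highest in dendritic-like cells (0.830 ± 0.126) and overlapped with neutrophil-like (0.567 ± 0.342) and monocyte/macrophage-like cells (0.464 ± 0.320). It was higher in cluster 23, led by Cma1, Tpsb2 and Cpa3 and outside the test, with 4.23 and 1.94 in deleted libraries 3 and 4 (105 and 22 cells), the libraries with at least 20 such cells. Icosl had its highest means in neutrophil-like (0.297 ± 0.190) and dendritic-like cells (0.185 ± 0.133), with overlap. Its mean in malignant-like cells, 0.0185 ± 0.0224, was the lowest of the 8 classes tested. There it averaged 0.0255 ± 0.0321 in deleted and 0.0114 ± 0.00298 in wild-type hosts (SD, n = 4 each), with overlap. Cd276 was highest in fibroblast-like (0.903 ± 0.347) and malignant-like cells (0.547 ± 0.171), which overlapped (SD over 7 or 8 libraries in each case). Its mean in dendritic-like cells was 0.00582.

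**Figure D2:**
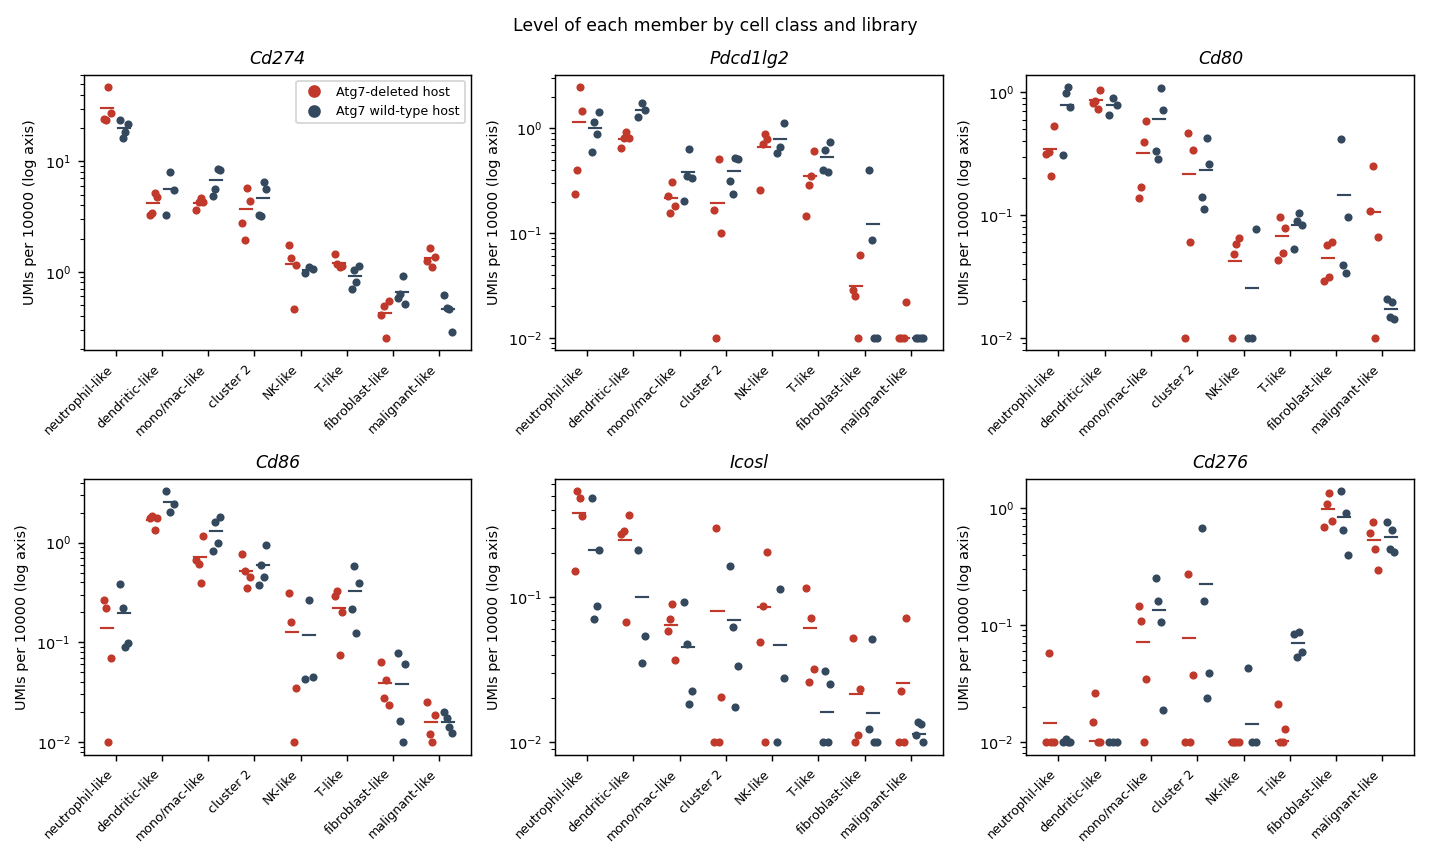
Level of each member (UMIs per 10000, log axis, values under 0.01 drawn at 0.01) by cell class. Points are libraries with at least 20 cells, deleted hosts left of wild-type hosts in each class, and lines are means. In malignant-like cells the 4 deleted libraries sit at 1.12 to 1.65 for Cd274, above the wild-type libraries at 0.288 to 0.617.

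Deleted and wild-type hosts were compared within each class with limma on log2(level + 0.1), adjusted over all genes tested in that class by Benjamini-Hochberg. Of 48 pairs of a member and a class, 24 passed the filter on low values (at least 5% of the class's cells with a UMI in as many libraries as the smaller genotype holds), and 1 of them had an adjusted p under 0.05: Cd274 in malignant-like cells. Of the 24, 21 had at least 2 libraries over that 5% in each genotype. Icosl in dendritic-like cells (4 of 4 deleted and 1 of 3 wild-type libraries) and Cd86 in NK-like cells (2 of 4 deleted and 1 of 3 wild-type libraries) passed mainly through the deleted hosts, and Cd80 in neutrophil-like cells (1 of 4 deleted and 3 of 4 wild-type libraries) mainly through the wild-type hosts. Over all genes, that threshold was passed by 0.486% of genes in malignant-like, 0.891% in T-like, 0.611% in neutrophil-like, 0.284% in dendritic-like, 0.108% in fibroblast-like and 0.0666% in NK-like cells. In monocyte/macrophage-like cells and cluster 2, limma called 0% of genes (0 of 6082 and 0 of 3444), with 676 and 140 genes at an unadjusted p under 0.05. With the barcode set as a term, limma called 269 of 6082 genes in monocyte/macrophage-like, 372 of 6956 in T-like and 125 of 9259 in malignant-like cells, and Cd274 in malignant-like cells was again the 1 member called (adjusted p = 0.0114). Levels of the genotypes did not overlap in 5 of the 24 pairs: Cd274 in malignant-like, monocyte/macrophage-like and neutrophil-like cells, and Pdcd1lg2 and Cd86 in dendritic-like cells. The share of all genes tested that did not overlap was 8.00% in malignant-like, 7.05% in monocyte/macrophage-like, 10.4% in neutrophil-like, 9.68% in dendritic-like, 9.36% in T-like, 8.48% in NK-like, 5.69% in fibroblast-like and 3.11% in cluster 2 cells.

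**Figure D3:**
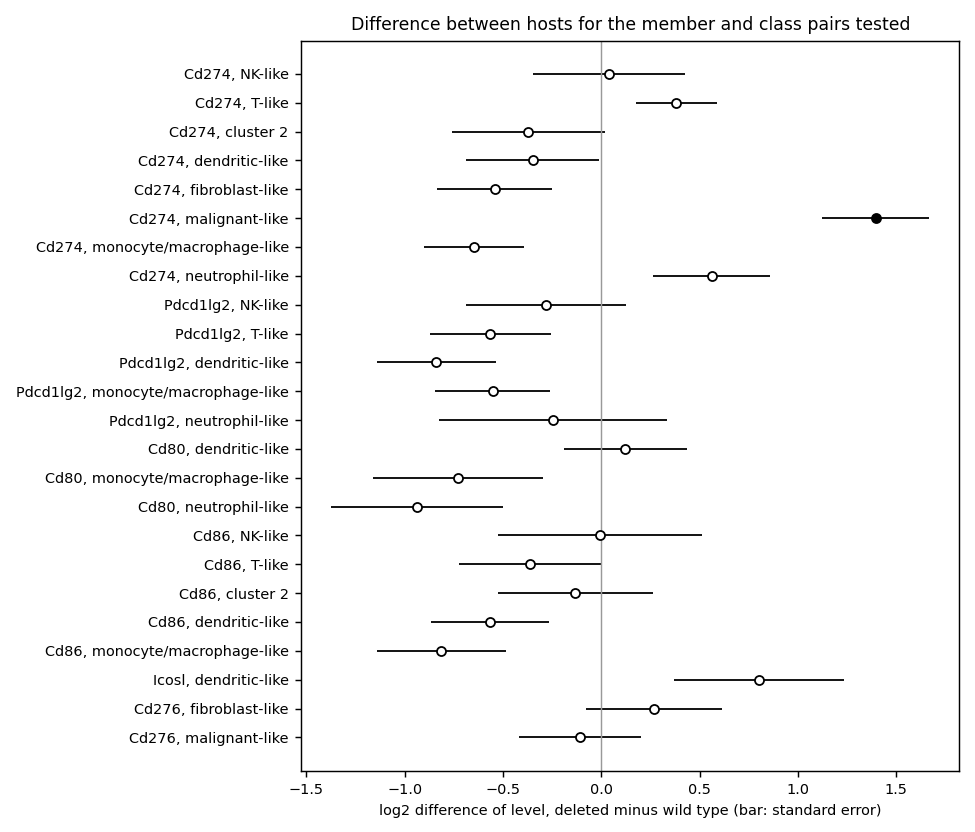
Log2 difference of level, deleted minus wild type (horizontal axis), with its limma standard error (bars), for the 24 tested pairs of member and class. The filled point, Cd274 in malignant-like cells at 1.40, is the pair with an adjusted p under 0.05.

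Cd274 rose in malignant-like cells of deleted hosts. Its level was 1.26, 1.65, 1.12 and 1.36 UMIs per 10000 in deleted libraries 3, 4, 7 and 8, against 0.617, 0.466, 0.459 and 0.288 in wild-type libraries 1, 2, 5 and 6. All deleted libraries lay above all wild-type libraries. The means were 1.35 ± 0.225 in deleted and 0.458 ± 0.135 in wild-type hosts (SD, n = 4 each), a 2.94-fold difference (limma log2 difference 1.40, SE 0.274, adjusted p = 0.0447). The levels differed by 0.911 among libraries 1 to 4 and by 0.865 among libraries 5 to 8 (exact permutation p = 0.0286, within sets p = 0.0556, adjusted p = 0.137 over the 24 pairs). The adjusted limma p passed 0.05 without deleted library 7 only, and was 0.0580 to 0.207 when any of the other 7 libraries was left out.

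The malignant-like cells of the groups were unlike in depth and in number. Their median depth was 1998, 2266, 15128 and 4619 UMIs in deleted libraries 3, 4, 7 and 8, against 9628 to 16637 in the wild-type libraries. Limited to cells of at least 5000 UMIs, a choice made after seeing the data, Cd274 was at 2.34 (13 cells), 0.855 (39 cells), 1.34 (88 cells) and 1.56 (51 cells) in the deleted libraries. In the wild-type libraries these deeper cells had 0.615, 0.457, 0.458 and 0.286. The groups did not overlap there either (3.35-fold, exact permutation p = 0.0286). With libraries of at least 20 such cells only, and thus without deleted library 3, the means were 1.25 ± 0.359 in deleted (n = 3) and 0.454 ± 0.135 in wild-type hosts (SD, n = 4, 2.75-fold, exact permutation p = 0.0286). Thinned to 1000 UMIs, 8.86% ± 4.93 of malignant-like cells in deleted and 4.17% ± 1.33 in wild-type hosts had a Cd274 UMI (SD, n = 4 each, exact permutation p = 0.171). This share differed by -0.266 percentage points, deleted minus wild type, among libraries 1 to 4 and by 9.65 among libraries 5 to 8. Shares without thinning were 27.9% to 58.3% in deleted and 25.7% to 41.9% in wild-type libraries, and differed by -7.28 points among libraries 1 to 4 and by 23.2 among libraries 5 to 8. The deleted libraries of the first set were thus not higher in the share of cells with a Cd274 UMI.

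The class's own 8 epithelial markers summed to 19.5 to 27.8 UMIs per 10000 in deleted and 28.6 to 42.8 in wild-type libraries, without overlap. RNA of other cell types was also more frequent in some of these cells. The 12 monocyte/macrophage markers summed to 10.6, 9.70, 0.314 and 4.63 UMIs per 10000 in malignant-like cells of deleted libraries 3, 4, 7 and 8, with 11, 11, 9 and 12 of them detected, against 0.480 to 1.42 in wild-type libraries, with all 12 detected. The 7 neutrophil markers summed to 0.0474 to 2.83 in deleted and 0.182 to 1.17 in wild-type libraries. The 6 fibroblast markers summed to 15.7, 6.28, 0.962 and 1.199 in the deleted libraries and to 0.0934 to 1.30 in the wild-type libraries. Deleted library 7, with the lowest sums of both lists among deleted libraries and with Csf1r, C1qc, Ms4a7, Csf3r, Cxcr2, Retnlg and Hdc at 0, had the lowest Cd274 level of the 4, at 1.12, and deleted library 4 had the highest, at 1.65. In the same libraries Cd274 was 2.51 to 4.42 times higher in malignant-like than in fibroblast-like cells in deleted hosts, and 0.503 to 1.06 times in wild-type hosts. The part of such RNA in the Cd274 values was not tested. Different clusters held most of the class in different libraries. Cluster 11, led by 2610528A11Rik, Prl2c2 and Prl2c3, had Cd274 at 1.55 and 1.22 in deleted libraries 7 and 8, against 0.486 and 0.262 in wild-type libraries 5 and 6. Cluster 0 (led by Hspb1, Gsta4 and Krt19) had 1.25 and 1.12 in deleted libraries 3 and 4, against 0.620, 0.468 and 0.580 in wild-type libraries 1, 2 and 5. In cluster 1 (led by Ccdc85b and Mt3) the groups overlapped, at 2.05, 0.437 and 0.893 in deleted libraries 4, 7 and 8 against 0.157 to 0.595 in the wild-type libraries. Clusters 3 and 4 had at least 20 cells in wild-type libraries 5 and 6 alone. Cluster 3 (led by Hist1h2ap, Ube2c and Cenpf) had Cd274 at 0.591 and 0.286 there. Cluster 4 (led by Dynap, Krt8 and Sox9, 3.06% and 3.72% of the class) had 1.46 and 1.29, within the range of the deleted libraries' malignant-like cells. Its cells also had Cd86 at 0.319 to 0.456 and Pdcd1lg2 at 0.0936 to 0.0946. Over the whole class these 2 genes reached at most 0.0253 and 0.0219 in any library. The part of RNA of other cell types in cluster 4 was not tested.

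In neutrophil-like cells, Cd274 was 24.0, 23.7, 47.1 and 27.7 in deleted libraries 3, 4, 7 and 8, against 23.6, 16.4, 18.3 and 22.0 in wild-type libraries 1, 2, 5 and 6. The groups did not overlap, but the lowest deleted library and the highest wild-type library were 23.7 and 23.6, and deleted library 7 (39 cells, 149 UMIs) stood far above the rest. The log2 difference was 0.56 (SE 0.298) and did not pass the test (limma adjusted p = 0.369). All neutrophil-like cells came from 1 cluster, led by S100a9 and S100a8. The 7 neutrophil markers summed to 240.2 to 522.8 in deleted and 469.6 to 755.2 in wild-type libraries, and fibroblast markers to 25.0 and 7.06 in deleted libraries 3 and 4 and at most 1.26 in the other 6. Their part in the result was not tested. The median of all 2293 genes tested in this class was 0.14 on the same scale.

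Cd274 lay the other way in monocyte/macrophage-like cells. It was 3.65, 4.31, 4.63 and 4.31 in deleted libraries 3, 4, 7 and 8, against 4.88, 5.63, 8.54 and 8.30 in wild-type libraries 1, 2, 5 and 6, without overlap. The log2 difference of -0.65 (SE 0.253) did not pass the test (limma adjusted p = 0.386). The thinned share of these cells with a Cd274 UMI was 34.7% ± 7.09 in deleted and 41.7% ± 6.55 in wild-type hosts. It overlapped (SD, n = 4 each, exact permutation p = 0.171), as did the unthinned share. The 6 fibroblast markers summed to 2.01 to 52.3 in deleted and 0.0824 to 1.92 in wild-type libraries, without overlap. The part of such RNA in the members' levels of this class was not tested. In cluster 2 the log2 difference was -0.37 (SE 0.390), with overlap, and in dendritic-like cells, where Cd274 averaged 4.16 ± 0.966 in deleted (n = 4) and 5.57 ± 2.36 in wild-type hosts (SD, n = 3), it was -0.35 (SE 0.337). Neither passed (limma adjusted p = 0.978 and 0.760). Log2 differences in T-like, NK-like and fibroblast-like cells were 0.38, 0.04 and -0.54, with limma adjusted p = 0.393, 0.991 and 0.553.

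The host difference of Cd274 was set side by side between classes, library by library, for 13 pairs of member and classes over all members. Relative to malignant-like cells, the log2 host difference was -2.04 in monocyte/macrophage-like and -1.88 in dendritic-like cells. Relative to neutrophil-like cells, it was -1.21 in monocyte/macrophage-like and -0.99 in dendritic-like cells. Each of the 4 gave the smallest possible two-sided exact permutation p = 0.0286, with adjusted p = 0.0743 over the 13 and p = 0.0556 within barcode sets. Between neutrophil-like and malignant-like cells the difference was -0.83 (exact permutation p = 0.114). For Cd80, the dendritic-like difference exceeded the neutrophil-like one by 1.39 (exact permutation p = 0.0286, adjusted p = 0.0743). Cd80 passed the filter in neutrophil-like cells mainly through the wild-type hosts, where it was higher, so this value is a description. The other 7 pairs had exact permutation p of 0.143 to 0.743.

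Pdcd1lg2, the other PD-1 ligand, stood lower in dendritic-like cells of deleted hosts, without passing the test. It was at 0.650, 0.811, 0.923 and 0.805 in deleted libraries 3, 4, 7 and 8, against 1.29, 1.74 and 1.48 in wild-type libraries 2, 5 and 6. These groups did not overlap. Wild-type library 1, with 19 dendritic-like cells, was left out by the minimum of 20 cells, and its value of 0.824 (10 UMIs) lay among the deleted libraries. The log2 difference was -0.84 (SE 0.304, unadjusted p = 0.0128), which did not pass after adjustment over all genes (limma adjusted p = 0.368). The 4 deleted libraries held 76, 56, 23 and 47 Pdcd1lg2 UMIs in this class. Its cells had the 6 fibroblast markers at summed levels of 0.0960 to 13.3 in deleted and 0 to 0.330 in wild-type libraries, with overlap. The part of such RNA in the Pdcd1lg2 and Cd86 levels of dendritic-like cells was not tested. After thinning to 1000 UMIs, 4.76% ± 1.09 of dendritic-like cells in deleted (n = 4) and 12.99% ± 2.87 in wild-type hosts (SD, n = 3) had a Pdcd1lg2 UMI, without overlap (exact permutation p = 0.0286, adjusted p = 0.343 over the 24 pairs). Unthinned, the shares were 24.2% to 34.0% in deleted and 32.6% to 37.7% in wild-type libraries and overlapped, and the median depth was 4060 to 9591 UMIs in deleted against 2742 to 4211 in wild-type libraries. Pdcd1lg2 averaged 0.218 ± 0.0652 in monocyte/macrophage-like cells of deleted and 0.383 ± 0.185 in wild-type hosts (SD, n = 4 each, log2 difference -0.55, limma adjusted p = 0.515). In T-like, NK-like and neutrophil-like cells the log2 differences were -0.56, -0.28 and -0.24, and none passed (limma adjusted p = 0.405, 0.905 and 0.874).

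Cd86, the constitutive CD28 ligand of myeloid cells, was 1.78, 1.86, 1.34 and 1.77 in dendritic-like cells of deleted libraries 3, 4, 7 and 8, against 3.26, 2.01 and 2.45 in wild-type libraries 2, 5 and 6. The groups did not overlap, with 1.86 as the highest deleted and 2.01 as the lowest wild-type value. The log2 difference of -0.57 (SE 0.300) did not pass (limma adjusted p = 0.550). Thinned to 1000 UMIs, the share of these cells with a Cd86 UMI was 19.7% ± 4.37 in deleted and 23.6% ± 6.55 in wild-type hosts (SD, n = 4 and 3, exact permutation p = 0.371). Cd86 in monocyte/macrophage-like cells was 0.664, 0.607, 0.397 and 1.17 in deleted libraries, against 0.827, 1.59, 0.995 and 1.80 in wild-type libraries, and the groups overlapped through deleted library 8 (log2 difference -0.81, SE 0.330, limma adjusted p = 0.396). The thinned share of monocyte/macrophage-like cells with a Cd86 UMI was 7.24% ± 3.65 in deleted and 12.3% ± 2.51 in wild-type hosts (SD, n = 4 each, exact permutation p = 0.0857). In cluster 2, T-like and NK-like cells the log2 differences were -0.13, -0.36 and -0.01 (limma adjusted p = 0.982, 0.670 and 0.998).

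Cd80, which is induced on activated antigen-presenting cells, averaged 0.864 ± 0.135 in dendritic-like cells of deleted (n = 4) and 0.785 ± 0.124 in wild-type hosts (SD, n = 3, log2 difference 0.12, SE 0.312, limma adjusted p = 0.928). Its thinned share of dendritic-like cells was 10.5% ± 3.03 in deleted and 4.05% ± 4.70 in wild-type hosts, with overlap (exact permutation p = 0.114). In neutrophil-like cells it was 0.317, 0.325, 0.207 and 0.528 in deleted libraries 3, 4, 7 and 8, against 0.310, 0.982, 1.11 and 0.756 in wild-type libraries 1, 2, 5 and 6. Wild-type library 1, with 3 Cd80 UMIs, lay among the deleted libraries (log2 difference -0.94, SE 0.436, limma adjusted p = 0.300). Since Cd80 passed the filter in neutrophil-like cells mainly through the wild-type hosts, these values are a description. Cd80 in monocyte/macrophage-like cells was 0.138, 0.169, 0.395 and 0.581 in deleted libraries, against 0.335, 0.285, 1.09 and 0.723 in wild-type libraries. The values overlapped over all libraries, while among libraries 1 to 4, and again among 5 to 8, the deleted pair was below the wild-type pair (log2 difference -0.73, SE 0.431, limma adjusted p = 0.558, exact permutation within sets p = 0.0556).

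Icosl, the ICOS ligand, passed the filter in dendritic-like cells alone. There it was 0.271, 0.285, 0.0672 and 0.369 in deleted libraries, on 34, 10, 3 and 21 UMIs, against 0.213, 0.0353 and 0.0540 in wild-type libraries 2, 5 and 6, on 3, 4 and 3 UMIs. The groups overlapped (log2 difference 0.80, SE 0.431, limma adjusted p = 0.557). Since Icosl passed the filter mainly through the deleted hosts, these values are a description. Without thinning 12.3% ± 4.82 of dendritic-like cells in deleted (n = 4) and 4.15% ± 2.19 in wild-type hosts (SD, n = 3) had an Icosl UMI. Thinned to 1000 UMIs, the shares lay the other way, at 1.56% ± 0.538 in deleted and 2.75% ± 2.102 in wild-type hosts (exact permutation p = 0.371). Cd276, whose highest levels here were outside the immune classes, overlapped between the hosts in both classes tested. In malignant-like cells it averaged 0.529 ± 0.203 in deleted and 0.566 ± 0.163 in wild-type hosts (SD over 4 libraries each), and limma gave a log2 difference of -0.11 (SE 0.312, adjusted p = 0.947). In fibroblast-like cells it averaged 0.971 ± 0.302 in deleted and 0.835 ± 0.421 in wild-type hosts (log2 difference 0.27, SE 0.346, limma adjusted p = 0.843). Thinned shares of cells with a Cd276 UMI were 7.502% ± 3.41 in deleted and 5.10% ± 1.04 in wild-type hosts for malignant-like cells, and 6.19% ± 3.35 in deleted and 8.37% ± 3.92 in wild-type hosts for fibroblast-like cells (SD, n = 4 each).

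Within the monocyte/macrophage-like class, the members differed between clusters. Cluster 12 (led by Retnla, Folr2 and Selenop) had the lowest mean Cd274 among the clusters of this class, with 0.763 to 2.31 over 5 libraries. Cluster 6 (led by Plac8, Ms4a4c and Ifitm6, with 25 to 379 cells) was the only cluster of the class with at least 20 cells in all 8 libraries. There Cd274 was 3.58, 5.29, 5.32 and 5.96 in deleted libraries 3, 4, 7 and 8, against 8.94, 6.57, 8.73 and 8.59 in wild-type libraries 1, 2, 5 and 6, so the groups did not overlap in this cluster either. Cd86 overlapped in cluster 6 (0.574 to 2.29 in deleted and 1.03 to 2.66 in wild-type libraries), as did Cd80 (0.117 to 0.857 in deleted and 0.448 to 1.13 in wild-type libraries) and Pdcd1lg2 (0.129 to 0.351 in deleted and 0.292 to 0.626 in wild-type libraries). These values are a description, because the clusters were made from the same cells and Cd274, Pdcd1lg2 and Cd80 were among the genes used.

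**Figure D4:**
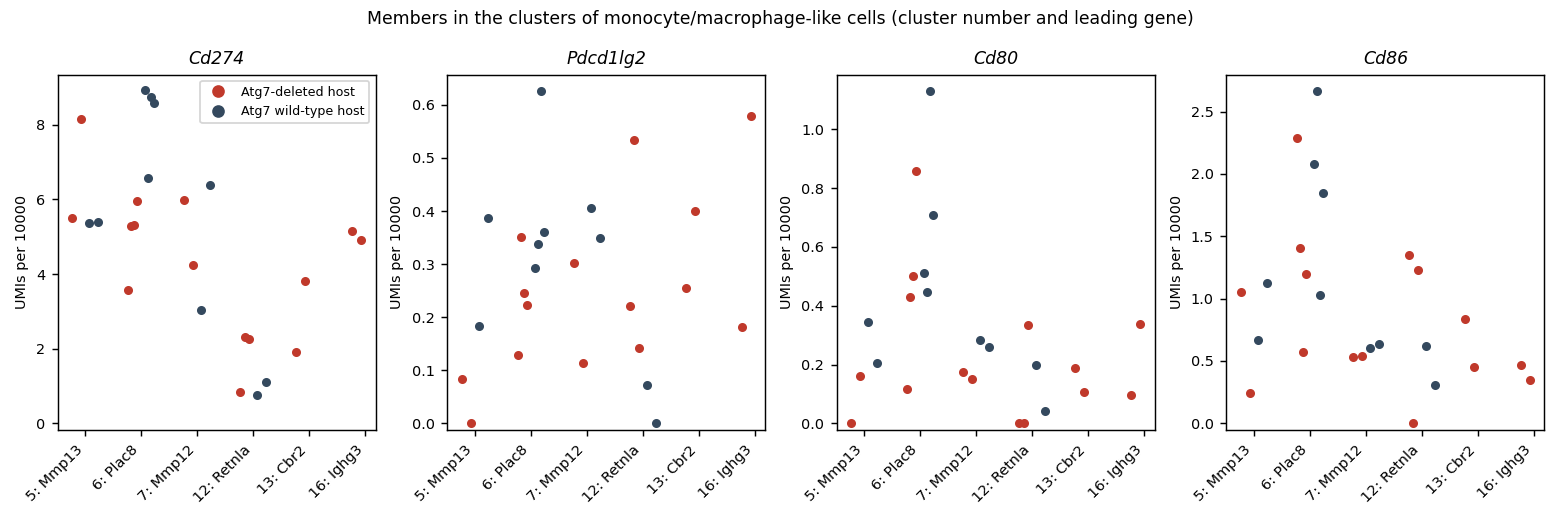
Level of 4 members (UMIs per 10000) in the clusters of monocyte/macrophage-like cells, each named by its number and leading gene. Points are libraries with at least 20 cells of the cluster, deleted hosts left of wild-type hosts. In cluster 6 (Plac8), Cd274 is 3.58 to 5.96 in deleted and 6.57 to 8.94 in wild-type libraries.

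Cells were also divided by a UMI of 1 gene, a division that depends on depth and is given without a test. Among monocyte/macrophage-like cells with a UMI of Cxcl9, a chemokine induced by interferon gamma, Pdcd1lg2 was 0.278, 0.272 and 0.229 in deleted libraries 3, 4 and 8, against 0.671, 0.681, 0.881 and 0.692 in wild-type libraries 1, 2, 5 and 6. Cells with an Arg1 UMI and no Cxcl9 UMI overlapped, at 0.139 to 0.280 in deleted and 0.0799 to 0.610 in wild-type libraries. Cd274 in the Cxcl9-positive cells was 3.47 to 4.92 in deleted and 5.23 to 9.23 in wild-type libraries. Dendritic-like cells with a UMI of Ccr7, the receptor that guides mature dendritic cells to lymph nodes, had more Cd274 than those without in each of the 6 libraries with 20 cells of both kinds. Their levels were 3.59 to 6.12 with and 1.41 to 3.19 without a Ccr7 UMI in deleted libraries 3, 4 and 8, and 4.69 to 9.21 with and 1.57 to 6.22 without in wild-type libraries 2, 5 and 6. Pdcd1lg2 in Ccr7-positive cells was 0.818 to 1.39 in deleted and 1.69 to 2.33 in wild-type libraries.

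In dendritic-like cells thinned to 1000 UMIs, 4.29% had UMIs of both Cd274 and Pdcd1lg2, averaged over 7 libraries, beside 3.05% for the product of the single shares, and the share was above the product in all 7. For Cd274 with Cd86 the values were 7.81% and 7.28% (above in 3 of 7 libraries), and for Cd80 with Cd86 1.79% and 1.48% (above in 4 of 7). In monocyte/macrophage-like cells Cd274 and Cd86 were found together in 4.20% of cells, beside 3.83% for the product, above it in 4 of 8 libraries.

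Over 62 points of class and library, which share libraries and differ in depth, the genes whose log2 level ran most like Cd274 among 11338 were Slc7a11 (Pearson r = 0.932), Nlrp3 (0.917), Tlr13 (0.917), Cd14 (0.914) and Tmem189 (0.911). For Pdcd1lg2 they were Tspan13 (0.850), Samsn1 (0.837), Dock10 (0.797), Srgn (0.792) and Pde4b (0.790). Those of Cd80 were Csf2rb2 (0.827), Nuak2 (0.817), Csf2rb (0.816), Gm46224 (0.801) and Gapt (0.791), and those of Cd86 were Arl5c (0.892), Gm2a (0.873), Etv3 (0.871), Pld4 (0.861) and Ms4a4c (0.856). For Icosl the values were lower, from 0.734 (Gm14548) through AC127341.3 (0.698), Siglecg (0.684) and Mthfs (0.671) to Pts (0.671). Cd276 ran most like Hspb8 (0.951), Ghr (0.949), Rbfox2 (0.945), Sh3pxd2a (0.931) and Steap2 (0.930). Among the members, Cd274 and Cd80 were most alike (0.707), and Cd276 was negatively related to the other 5 (-0.775 to -0.377). These correlations describe the points and carry no test.

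On the T cell side, none of the 4 receptor genes, which cover the members other than Cd276, passed the test in T-like cells. Cd28, the activating receptor of Cd80 and Cd86, was 5.73, 3.88, 3.99 and 4.18 in deleted libraries 3, 4, 7 and 8, against 3.21, 2.42, 3.07 and 2.01 in wild-type libraries 1, 2, 5 and 6, without overlap (log2 difference 0.71, SE 0.223, limma adjusted p = 0.170). T-like cells came from unlike clusters: cluster 19, led by Cd4, Tnfrsf4 and Tnfsf11, held 24.9% to 48.2% of them in deleted libraries and 6.89% to 10.3% in wild-type libraries 2, 5 and 6. Wild-type library 1, with 59 T-like cells, had under 20 cells of this cluster, and its share is not given. The part of these unequal shares in the Cd28 values was not tested. Pdcd1, which encodes PD-1, averaged 1.23 ± 0.466 in deleted and 1.88 ± 0.529 in wild-type hosts (SD, n = 4 each, log2 difference -0.59, limma adjusted p = 0.350). Ctla4 averaged 3.58 ± 1.14 in deleted and 2.26 ± 0.277 in wild-type hosts (log2 difference 0.58, limma adjusted p = 0.305), and Icos 6.50 ± 1.73 in deleted and 4.69 ± 1.10 in wild-type hosts (log2 difference 0.45, limma adjusted p = 0.411). The receptors' median log2 difference was 0.52, beside 0.08 for all 6956 genes tested in T-like cells.

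**Figure D5:**
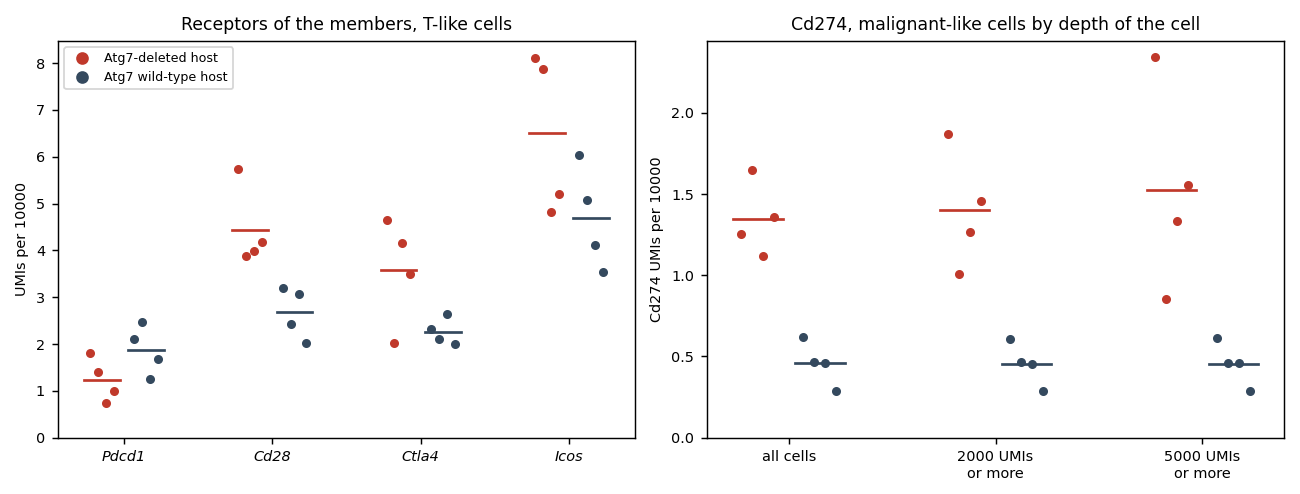
Left, level (UMIs per 10000) of the 4 receptor genes in T-like cells by library, deleted hosts left of wild-type hosts, lines at the means: Cd28 is 3.88 to 5.73 in deleted and 2.01 to 3.21 in wild-type libraries. Right, Cd274 in malignant-like cells, over all cells and over cells of at least 2000 or 5000 UMIs, where deleted libraries stay above wild-type libraries.

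Of the 10 genes that carry or restrain the induction of Cd274 by interferon gamma, all 10 were tested in malignant-like cells, and 0 were called in either direction, with a median log2 difference of -0.02 beside -0.09 for all genes tested there. In monocyte/macrophage-like cells 9 were tested and 0 called (median 0.07, beside 0.08 for all genes), and in neutrophil-like cells 8 were tested and 0 called (0.19, beside 0.14). Ifng itself averaged 1.75 ± 0.787 in T-like cells of deleted and 1.65 ± 0.676 of wild-type hosts (SD, n = 4 each, exact permutation p = 0.8286). In NK-like cells Ifng averaged 2.56 ± 2.53 in deleted and 0.982 ± 0.555 in wild-type hosts, with overlap (SD, n = 4 and 3). The exact permutation test there gave p = 0.457, and deleted library 7 was highest at 6.34. Of the 14 genes that rise with Cd80 and Cd86 as dendritic cells mature, all were tested in dendritic-like cells and 0 were called (median 0.07, beside 0.11). In T-like cells 9 of these 14 were tested and 1 was called, beside the 0.891% of all genes called there. It was Socs2, a cytokine signalling inhibitor, at 0.815 ± 0.291 in deleted and 0.244 ± 0.0524 in wild-type hosts (SD over 4 libraries each), with a limma log2 difference of 1.37 (SE 0.250, adjusted p = 0.0279). The call was lost with no filter on low values (limma adjusted p = 0.118), with clustering resolution 0.5 (0.485), with means of ln values (0.126) and without any library other than deleted library 8 (0.0520 to 0.0867). The part of the unequal share of cluster 19, given above, in the Socs2 values was not tested. Of the 10 other ligands of inhibitory receptors, such as Lgals9 and Nectin2, 3 to 6 were tested per class and 0 were called in any of the 8 classes tested. Their medians ran from -0.04 in cluster 2 to 0.42 in neutrophil-like cells.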

How the data were processed

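Single-cell 5′ libraries were made with Cell Ranger 2.1 and Seurat 3.0 on mm10, per the submitters' processing notes. The deposited values are natural log values, ln(1 + 10000 × UMI / total UMIs of the cell), as the values show, from which whole UMIs (within 0.01) were recovered for 100% of values. Because the deposited unit is a natural log, limma 3.58.1 (R 4.3.3) was used and no count test. Of 29496 deposited cells, 919 were removed (under 200 genes or over 10% mitochondrial UMIs) and then 89 as doublets (0.302%, too few for a working doublet filter). Cells were clustered (scanpy 1.11.5, 2000 variable genes, 30 components, 15 neighbours, Leiden resolution 1) and classes named from marker genes. Classes with 20 cells in at least 3 libraries of each genotype were tested on log2(level + 0.1), where the pseudocount of 0.1 understates changes of low genes. A gene was tested where 5% of cells had a UMI in as many libraries as the smaller genotype holds. Single values had two-sided exact permutation tests over libraries. The fit was run on levels simulated for the monocyte/macrophage-like class alone, with the same spread set for every gene. That run does not cover the malignant-like class. Members and gene lists were chosen with earlier results of these data known. All 6 members, list genes called in a class, Atg7, the 4 receptor genes and the 5 genes most like each member were named. Alternatives were other pseudocounts, scalings, filters, clusterings, a barcode set term and leaving out each library. UMI counts limit the precision of low genes.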

Additional observations from a re-analysis of the deposited data

Results flagged for a closer look

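Cd274 in neutrophil-like cells of deleted library 7, at 47.1 UMIs per 10000, stood far from the other 3 deleted libraries (23.7 to 27.7). Cd86 in dendritic-like cells of deleted library 7, at 1.34, stood below the other 3 (1.77 to 1.86). Both come from the library with the fewest UMIs. Of 52 groups of libraries examined for such a gap, 2 had one, where chance gives about 1 in 20.

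The log2 host difference, deleted minus wild type, was set against that of another class in 13 comparisons, by a test of the difference itself. In 5 of the 13 the exact permutation p was 0.0286, the smallest possible. None of these 5 passed after adjustment (adjusted p = 0.0743 each). For Cd274 the difference was -1.21 for monocyte/macrophage-like against neutrophil-like cells and -2.04 against malignant-like cells. For dendritic-like cells it was -0.99 against neutrophil-like and -1.88 against malignant-like cells. For Cd80 it was 1.39 for dendritic-like against neutrophil-like cells. That value is a description, because Cd80 passed the filter in neutrophil-like cells mainly through the wild-type hosts.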

How the results depend on the processing

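No paired analysis was possible because the genotypes share no replicate numbers. The count of members called, 1 in the reported analysis, was 0 with a pseudocount of 0.5, at least 50 cells, clustering resolution 0.5, clustering without the members or at least 500 genes per cell, and 0 to 1 when 1 library was left out. The Cd274 log2 difference in malignant-like cells was positive in all 23 alternatives (0.33 to 1.58). The Cd86 share in monocyte/macrophage-like cells, -1.32 points as reported, was 0.496 with resolution 0.5, 7.79 with the mitochondrial filter as deposited, 5.28 with at least 500 genes and 0.655 as shares of cells with a UMI, and -9.05 to 8.99 without 1 library. The share without 1 library was -4.60 to 13.2 points for Pdcd1lg2 and -5.96 to 7.08 for Cd80. Log2 differences turned sign for Cd274 in NK-like cells (-0.11 with median-ratio scaling, -0.0466 with a barcode set term, -0.18 to 0.39 without 1 library) and T-like cells (-0.61 with resolution 0.5), Icos in T-like cells (-0.0915 with resolution 0.5), Pdcd1lg2 in neutrophil-like (0.0250 with means of ln values, -0.75 to 0.24 without 1 library) and NK-like cells (-0.45 to 0.0493 without 1 library), Cd80 in neutrophil-like cells (0.10 with at least 500 genes), Cd86 in NK-like cells (0.0154 with a pseudocount of 0.5, 0.0309 with means of ln values, 0.00326 with summed UMIs, -0.23 to 0.44 without 1 library) and cluster 2 (-0.31 to 0.0825 without 1 library), and Cd276 in malignant-like cells (0.0147 with summed UMIs, 0.0233 with median-ratio scaling, 0.13 with at least 500 genes, -0.28 to 0.0943 without 1 library). Of the shares of cells with a UMI given above, those that turned sign without thinning were Cd86 in dendritic-like cells (4.86 points), Icosl in dendritic-like cells (8.12, and 1.81 thinned to 2000 UMIs, and -1.98 to 0.00836 without 1 library), Cd276 in fibroblast-like cells (6.48, and 3.89 thinned to 2000 UMIs) and Cd276 in malignant-like cells (-16.1). Genes called in T-like cells, 62 as reported, were 372 with a barcode set term, 237 with summed UMIs, 33 with means of ln values, 0 with no filter or resolution 0.5, and 5 to 51 without 1 library. In malignant-like cells 45 were 125 with a barcode set term, 77 with summed UMIs, 1156 with means of ln values, 296 with no filter, 17 with a pseudocount of 0.5, and 0 to 69 without 1 library. In monocyte/macrophage-like cells, with 0 as reported, 269 were called with a barcode set term and at most 3 in the other alternatives. The cause was not tested in any of these.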

Other observations

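Cluster 23, led by the mast cell genes Cma1, Tpsb2 and Cpa3 and left unnamed, had at least 20 cells in deleted libraries 3 and 4 alone. Its Cd80 level was 4.23 UMIs per 10000 in deleted library 3 (105 cells, 26 UMIs) and 1.94 in deleted library 4 (22 cells, 3 UMIs). Its Cd274 level was 0.853 in deleted library 3 and 1.44 in deleted library 4.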
